A study of Hordeum vulgare with 12 samples.

Results

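Gibberellins (GAs) are diterpenoid hormones of plants that promote growth and germination, and their amount in a tissue is set by synthesis and by inactivation. Gibberellin 2-oxidases hydroxylate GAs or their precursors into inactive forms, and cytochrome P450 enzymes of the ELA/EUI type, known from Arabidopsis and rice, are a further route of GA deactivation. On the synthesis side, ent-kaurene synthases form the hydrocarbon precursor and gibberellin 20-oxidases make the precursors of active GAs, while the receptor GID1 binds active GAs and so leads to the removal of DELLA repressors.

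The values of 3 genes are described here, out of 26073 identifiers counted in barley (Hordeum vulgare) stem bases. MLOC_38462 and MLOC_72016 encode gibberellin 2-oxidases and MLOC_58793 encodes a P450 annotated as the GA modification enzyme ELA. They were picked from the genes that the study listed as more abundant at 10 than at 1 day after germination (10DAG and 1DAG) in wild-type seedlings. The wild-type comparison of ages therefore chose them, and its values are given only as a description.

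RNA was sequenced from the stem base, or crown, which is the segment where crown roots form and emerge. The 12 libraries comprised 3 of wild-type cv. Golden Promise (WT) at 1DAG, 3 of WT at 10DAG, 3 of an AtCKX1-overexpressing line at 1DAG and 3 of that line at 10DAG. AtCKX1 comes from Arabidopsis and its product, a cytokinin dehydrogenase, breaks cytokinins down. The promoter of the transgene, the number of lines and the genetic background of the line are not given in the sources used here, and the study's text does not describe these libraries. By the study's methods each sample pooled several seedlings. Seedlings were on moist paper when sampled at 1DAG and in hydroponics at 10DAG, when a longer segment was cut. Age, medium and segment length thus cannot be told apart. In such bulk samples, fewer cells of a type and less RNA per cell cannot be told apart either.

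The libraries held 36100002 to 51997655 reads in genes. The transgene had 0 counts in all 6 WT libraries, 11 to 18 counts in AtCKX1 libraries at 1DAG and 7 to 42 at 10DAG. Replicate 1 of WT 1DAG stood furthest from its group, with a root mean square difference of 0.872 in log2 CPM from its group mates (median of the 12 libraries 0.474), where CPM is a gene's count scaled to the size of its library (edgeR, TMM factors). Replicate 3 of WT 1DAG came next with 0.643, and replicate 2 of WT 10DAG had 0.580. Replicate 1 of WT 1DAG and replicate 2 of WT 10DAG had been named as apart in earlier work on these data and were left out together as an alternative, while replicate 3 of WT 1DAG, like every library, was left out singly. The crown root regulators CRL1.1 and SCR-like1 were detected in every library, and both moved with age. CRL1.1 measured 9.35 to 13.8 CPM in the 6 libraries of 1DAG and 4.04 to 8.47 CPM in the 6 of 10DAG, and SCR-like1 measured 56.0 to 81.1 CPM and 166 to 228 CPM. A list of 12 photosynthesis genes, meant as marks of green tissue, was summed for each library. The sums were 168 to 290 CPM in the 6 libraries of 1DAG and 881 to 1308 CPM in the 6 libraries of 10DAG. None of the 12 was at 0 in all libraries of a group. The list was drawn from genes already listed as more abundant at the later age in WT. Its rise in WT was thus fixed by that choice. In the paper, photosynthesis is a category enriched among the genes lower at the later age. The sum therefore cannot show whether green tissue increased. The levels of all these markers moved with age, as the genes below did, and their part in the values below was not tested.

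MLOC_38462 was the better covered of the gibberellin 2-oxidase genes. Its level was 7.11, 9.34 and 19.5 CPM in WT replicates 1, 2 and 3 at 1DAG, and 33.7, 50.0 and 66.2 CPM in those of WT at 10DAG. In AtCKX1 plants it was 11.7, 9.40 and 10.3 CPM at 1DAG, and 74.02, 40.5 and 69.8 CPM at 10DAG. All 6 libraries of 10DAG lay above all 6 of 1DAG, whereas the genotypes overlapped within each age. The group means were 11.99 ± 6.62 CPM for WT 1DAG and 50.0 ± 16.3 CPM for WT 10DAG, and 10.5 ± 1.15 CPM for AtCKX1 1DAG and 61.4 ± 18.3 CPM for AtCKX1 10DAG (SD, n = 3 each). Ordered by mean, the levels ran AtCKX1 1DAG, WT 1DAG, WT 10DAG and AtCKX1 10DAG, and the only neighbours in this order whose libraries did not overlap were WT 1DAG and WT 10DAG. The spread of WT 1DAG came largely from replicate 3, which held 770 reads of the gene against 350 and 384 in its group mates.

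MLOC_72016, the other gibberellin 2-oxidase, was close to the limit of detection at 1DAG. The WT libraries of that age held 1, 0 and 4 reads of it, and the AtCKX1 libraries held 2, 1 and 5. A count of 0 allows up to 3 counts. At 10DAG the counts were 25, 32 and 18 in WT and 11, 32 and 11 in AtCKX1. Every library of 10DAG was thus above every library of 1DAG. In CPM the 10DAG libraries had 0.471, 0.874 and 0.454 in WT and 0.247, 0.639 and 0.289 in AtCKX1, so that both genotypes were highest in replicate 2. The group means were 0.0406 ± 0.0537 CPM for WT 1DAG, 0.0634 ± 0.0518 CPM for AtCKX1 1DAG, 0.392 ± 0.215 CPM for AtCKX1 10DAG and 0.5996 ± 0.238 CPM for WT 10DAG (SD, n = 3 each), and in this order only AtCKX1 1DAG and AtCKX1 10DAG were neighbours without overlap. Summed over the 3 libraries of a group, 5 reads were counted in WT 1DAG (exact Poisson 95% interval 1.62 to 11.7), 8 in AtCKX1 1DAG (3.45 to 15.8), 54 in AtCKX1 10DAG (40.6 to 70.5) and 75 in WT 10DAG (59.0 to 94.0). These intervals cover counting error only. None of the 6 libraries of 1DAG, and all 6 of 10DAG, exceeded the minimum of 0.235 CPM used to filter genes. The gene thus entered the tests only through the age at which it was high, and its tests of age are not free of that filter.

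MLOC_58793, the P450 gene, had the tightest levels at 1DAG in the AtCKX1 plants. It measured 0.873, 0.535 and 1.29 CPM in WT 1DAG and 9.85, 10.5 and 7.47 CPM in WT 10DAG. The AtCKX1 values were 1.13, 1.08 and 1.04 CPM at 1DAG and 9.49, 4.03 and 6.81 CPM at 10DAG. Again no library of 10DAG fell to the level of any library of 1DAG, and the genotypes overlapped at each age. Means were 0.9005 ± 0.380 CPM in WT 1DAG, 1.09 ± 0.0453 CPM in AtCKX1 1DAG, 6.78 ± 2.73 CPM in AtCKX1 10DAG and 9.26 ± 1.58 CPM in WT 10DAG (SD, n = 3 each), and again only AtCKX1 1DAG and AtCKX1 10DAG were neighbours without overlap. Replicate 2 of AtCKX1 10DAG was the lowest of its group for MLOC_58793 and for MLOC_38462, but the highest for MLOC_72016. The same library had the fewest transgene counts of its group, 7 against 42 and 12, or 0.140 CPM against 0.942 and 0.316 CPM. Its transgene level was below the minimum of 0.235 CPM used to filter genes, and counts this low rank libraries poorly. The part of the transgene level in these values was not tested.

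**Figure D1:**
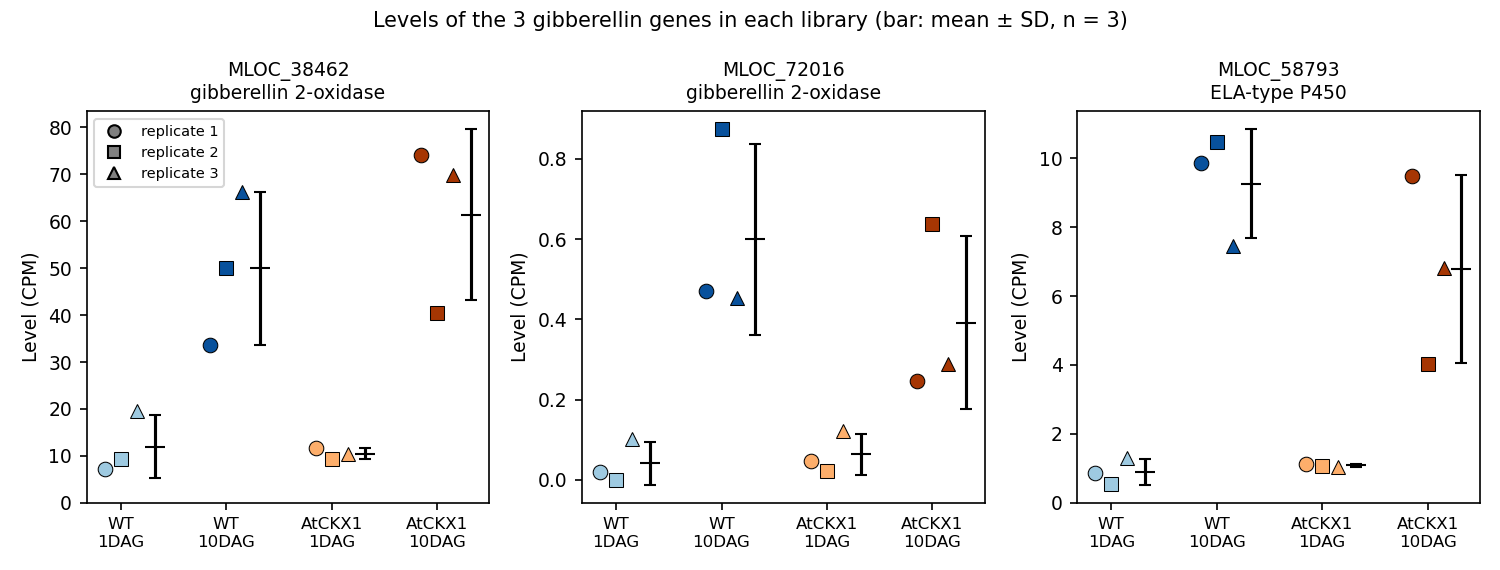
Levels of MLOC_38462, MLOC_72016 and MLOC_58793 in CPM (vertical axis, linear, one scale per gene) in the 3 libraries of each of the 4 groups, with the symbol giving the replicate and the bar the mean ± SD. For each gene the 6 libraries of 10DAG lie above the 6 libraries of 1DAG, and the WT and AtCKX1 points overlap at each age. Of all genes tested, 28.2% within WT and 34.1% within AtCKX1 plants had their 10DAG libraries above those of 1DAG.

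The WT comparison of ages, which chose the genes, gave log2 fold changes of 2.10 (SE 0.42) for MLOC_38462, 3.87 (SE 0.87) for MLOC_72016 and 3.39 (SE 0.38) for MLOC_58793. Without replicate 3 of WT 1DAG they were 2.63, 5.47 and 3.73, and without replicate 1 of WT 1DAG and replicate 2 of WT 10DAG together they were 1.82, 3.16 and 3.26. A gene was called where its p from edgeR's quasi-likelihood test, adjusted by Benjamini-Hochberg, did not exceed 0.05 and its log2 fold change reached 1 in size. By this rule 14.4% of 19773 genes were called higher at 10DAG in WT and 26.0% were called in either direction. All libraries of 10DAG were above all of 1DAG in 28.2% of the genes.

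The AtCKX1 libraries took no part in the WT comparison, and their comparison of ages is a test of the same change in other samples. The estimate of the spread, the scaling and the filter on low counts were however shared with the WT libraries. The 3 genes were also picked with earlier results of these data known, so the choice may not be wholly free of the AtCKX1 values. MLOC_38462 was 5.86-fold higher at 10DAG, a log2 fold change of 2.55 (SE 0.38, 95% interval 1.72 to 3.39, adjusted p = 0.000216 by edgeR). MLOC_58793 was 6.23-fold higher, a log2 fold change of 2.64 (SE 0.36, 95% interval 1.86 to 3.42, edgeR adjusted p = 0.000114). Both genes rose in AtCKX1 plants, and each was higher in 3 of 3 libraries of 10DAG than in any library of 1DAG. In this comparison 15.8% of 20212 genes were called higher and 28.0% were called in either direction, while 34.1% had all libraries of 10DAG above all of 1DAG. Those shares cover all genes, not genes listed for a rise in WT. Of the 12 photosynthesis genes, which were drawn from that list too, 9 were called higher in AtCKX1 plants. The changes of MLOC_38462 and MLOC_58793 lay at the percentiles 95.2 and 95.6 of the log2 fold changes of all genes tested.

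MLOC_72016 also passed the test in AtCKX1 plants, with a log2 fold change of 2.61 (SE 0.79, 95% interval 0.87 to 4.35, edgeR adjusted p = 0.0158), or 6.10-fold. Its interval was wide, from 1.83-fold to 20.3-fold. The gene had passed the filter on low counts only through libraries of 10DAG, WT and AtCKX1 alike, so this test is not free of the filter. The call depended on single libraries. It was lost without replicate 1 of AtCKX1 1DAG (log2 fold change 2.43, edgeR adjusted p = 0.0602), without replicate 2 of that group (2.19, adjusted p = 0.0690) and without replicate 2 of AtCKX1 10DAG (2.02, adjusted p = 0.0747). For MLOC_38462 and MLOC_58793 every alternative tried kept the call, with log2 fold changes between 2.37 and 2.75 and between 2.29 and 2.88.

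AtCKX1 and WT plants were next compared at the same age. No difference in the level of any of the 3 genes passed the test at 1DAG or at 10DAG, where edgeR called 0.505% and 1.24% of 20212 genes. DESeq2 also called 0 of the 3, although its share over all genes was not worked out. By edgeR 0 of the 3 had an unadjusted p of at most 0.05, against 17.9% of all genes at 1DAG and 13.7% at 10DAG. These comparisons share the WT libraries with the comparison that chose the genes.

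At 1DAG the log2 fold change of AtCKX1 against WT was -0.19 for MLOC_38462 (95% interval -0.99 to 0.61, edgeR adjusted p = 0.772), 0.63 for MLOC_72016 (-1.56 to 2.83, adjusted p = 0.723) and 0.27 for MLOC_58793 (-0.52 to 1.06, adjusted p = 0.668). Leaving out replicate 3 of WT 1DAG turned the sign for MLOC_38462 (0.35) and moved MLOC_72016 to 2.24, and leaving out replicate 3 of AtCKX1 1DAG turned the sign for MLOC_72016 (-0.19). At 10DAG the values were 0.30 for MLOC_38462 (-0.49 to 1.08, edgeR adjusted p = 0.772), -0.59 for MLOC_72016 (-2.02 to 0.83, adjusted p = 0.750) and -0.45 for MLOC_58793 (-1.17 to 0.27, adjusted p = 0.597). Every interval held 0. A 2-fold difference in at least one direction lay within the interval of each gene at 10DAG, and at 1DAG within those of MLOC_72016 and MLOC_58793, so these libraries do not show equal levels in the genotypes. Without replicate 1 of WT 1DAG and replicate 2 of WT 10DAG, the differences of MLOC_38462, MLOC_72016 and MLOC_58793 were -0.47, 0.29 and 0.24 at 1DAG and 0.30, -0.21 and -0.35 at 10DAG, with no call.

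The difference between the age effects of the genotypes was tested directly. It was 0.49 on the log2 scale for MLOC_38462 (95% interval -0.63 to 1.61, edgeR adjusted p = 0.864), with the larger rise in AtCKX1 plants. For MLOC_72016 it was -1.23 (-3.87 to 1.41, adjusted p = 0.854) and for MLOC_58793 -0.72 (-1.79 to 0.35, adjusted p = 0.835), with the larger rise in WT. None of the 3 differences passed the test, by edgeR or by DESeq2, and none had an unadjusted p of at most 0.05. Without replicate 3 of WT 1DAG the difference of MLOC_38462 turned to -0.054 and those of MLOC_72016 and MLOC_58793 were -2.83 and -1.07. For MLOC_72016 the values with 1 library left out ran from -2.83 to -0.41. Without replicate 1 of WT 1DAG and replicate 2 of WT 10DAG together the differences were 0.77, -0.50 and -0.59, and none was called in either case. Among all genes 0.485% were called for such a difference and 7.17% had an unadjusted p of at most 0.05.

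The study's list of genes higher at 10DAG held 7 further genes related to gibberellin in the entries used here. Among them was a GASA precursor, taken as a gene of GA response and not of GA metabolism or reception. All 7 are the further genes meant below. They too were chosen in WT, where their median log2 fold change was 1.99, and 6 were called higher. The exception in the main edgeR fit was the gibberellin 20-oxidase MLOC_16059, with a log2 fold change of 1.14 and overlapping libraries. It was called higher in 4 of 16 alternatives, DESeq2 among them. Its WT levels were 3.51, 2.19 and 2.61 CPM at 1DAG and 6.07, 8.60 and 3.23 CPM at 10DAG.

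In AtCKX1 plants 5 of these 7 genes were called higher at 10DAG, none was called lower and 2 did not pass the test, where 15.8% of all genes were called higher and 28.0% in either direction. Their median log2 fold change was 1.40, against -0.01 over all 20212 genes. The GASA precursor MLOC_68372, of a family of small cysteine-rich peptides that often respond to GA, rose by 3.35 (edgeR adjusted p = 0.000135). The GID1-like receptor MLOC_6074 rose by 1.80 (adjusted p = 7.58e-06) and MLOC_36663, annotated as the enzyme GAS2 that in Arabidopsis hydrates the precursor gibberellin A12, rose by 1.40 (adjusted p = 1.65e-05). These 3 genes kept their call under each alternative tried.

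The calls of the remaining risen genes were less stable. The second ELA-type P450, MLOC_36799, rose by 1.07 on the log2 scale in AtCKX1 plants (edgeR adjusted p = 0.0250) and kept its call in 11 of 16 alternatives. It measured 32.2, 51.7 and 31.1 CPM at 1DAG and 107, 53.4 and 81.3 CPM at 10DAG, so that replicate 2 of each age nearly met. MLOC_66389, a gibberellin 20-oxidase, rose by 2.04 (edgeR adjusted p = 0.0290) on 4 reads at 1DAG and 18 at 10DAG summed over the AtCKX1 libraries. It exceeded the filter only in the 3 WT libraries of 10DAG, kept its call in 7 of 14 alternatives and missed it with DESeq2 (adjusted p = 0.0682).

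The genes of GA synthesis that did not pass in AtCKX1 plants were the ent-kaurene synthase-like MLOC_13618, with a log2 fold change of 0.49 (95% interval -0.58 to 1.56, edgeR adjusted p = 0.421), and MLOC_16059, with 0.21 (-0.49 to 0.91, adjusted p = 0.609). For both, all AtCKX1 libraries of 10DAG still lay above all of 1DAG, as in 34.1% of all genes. MLOC_16059 measured 1.79, 2.07 and 2.14 CPM at 1DAG and 2.36, 2.18 and 2.39 CPM at 10DAG. In a fit of only the 6 AtCKX1 libraries MLOC_13618 had 0.49 (edgeR adjusted p = 0.0147), short of the fold limit. Relatives of ent-kaurene synthase in rice also serve the synthesis of other diterpenoids, so the GA role of MLOC_13618 rests on its annotation. Its AtCKX1 levels were 153, 106 and 140 CPM at 1DAG and 202, 164 and 194 CPM at 10DAG. In WT they were 11.4, 61.6 and 71.9 CPM at 1DAG and 134, 216 and 272 CPM at 10DAG. The WT value of 11.4 CPM belonged to replicate 1 of 1DAG, the library that stood furthest from its group.

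**Figure D2:**
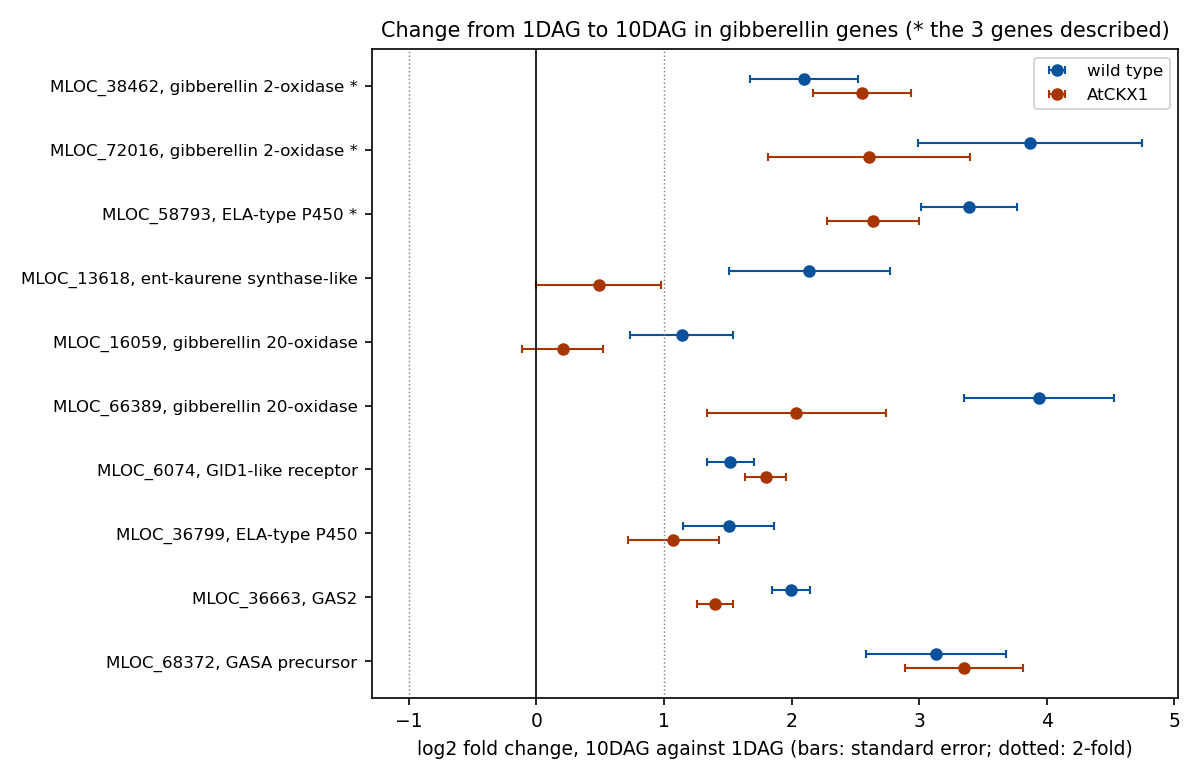
Log2 fold change from 1DAG to 10DAG (horizontal axis) of the 10 gibberellin genes in WT and in AtCKX1 plants, with bars of 1 standard error and asterisks at the 3 genes described. The WT values chose all 10 genes and are a description, while the AtCKX1 values of MLOC_38462, MLOC_72016 and MLOC_58793 lie between 2.55 and 2.64 and those of MLOC_13618 and MLOC_16059 at 0.49 and 0.21.

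Between the genotypes edgeR called 0 of the 7 further genes at either age and 0 for the difference of the age effects, and 1, 3 and 2 of them had an unadjusted p of at most 0.05 in these comparisons, as had 17.9%, 13.7% and 7.17% of all genes. All 7 had been chosen for being high in the same WT libraries of 10DAG, so values below WT at that age are not independent of the choice. With this limit, 3 genes had all AtCKX1 libraries below all WT libraries at 10DAG, as had 12.1% of all genes, and MLOC_66389, one of them, had entered the tests only by being high in WT 10DAG. The values were, for MLOC_16059, a log2 fold change of -1.37 (edgeR adjusted p = 0.0576), for MLOC_66389 -1.50 (adjusted p = 0.236) and for MLOC_36663 -0.60 (adjusted p = 0.0538). MLOC_16059 measured 2.36, 2.18 and 2.39 CPM in AtCKX1 10DAG, below the lowest WT library of that age at 3.23 CPM. DESeq2 called MLOC_16059 lower (log2 fold change -1.34, adjusted p = 0.00294), as did edgeR without replicate 3 of WT 10DAG (-1.67, adjusted p = 0.0121). Only these 2 of 16 alternatives called it. Without replicate 1 of WT 1DAG and replicate 2 of WT 10DAG its edgeR value was -0.9994 (adjusted p = 0.0813). For MLOC_36663 DESeq2 gave -0.58 (adjusted p = 0.00340), short of the fold limit, and 0 of 16 alternatives called it.

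At 1DAG the AtCKX1 libraries of MLOC_13618 were all above the WT libraries, as in 10.1% of all genes, with a log2 fold change of 1.46 (edgeR adjusted p = 0.195), and DESeq2 called it higher (1.47, adjusted p = 0.0408). Without replicate 1 of WT 1DAG and replicate 2 of WT 10DAG the edgeR value was 0.99 (adjusted p = 0.268). MLOC_16059 and MLOC_68372 had all AtCKX1 libraries of 1DAG below all WT libraries, as in 11.3% of all genes, with log2 fold changes of -0.47 (edgeR adjusted p = 0.409) and -0.85 (adjusted p = 0.329). The gibberellin 2-oxidases and the P450 MLOC_58793 overlapped between the genotypes at both ages, as did MLOC_6074 and MLOC_36799 of the further genes. Such overlap was the usual state, since at 1DAG only 10.1% of all genes lay wholly above WT and 11.3% wholly below.

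**Figure D3:**
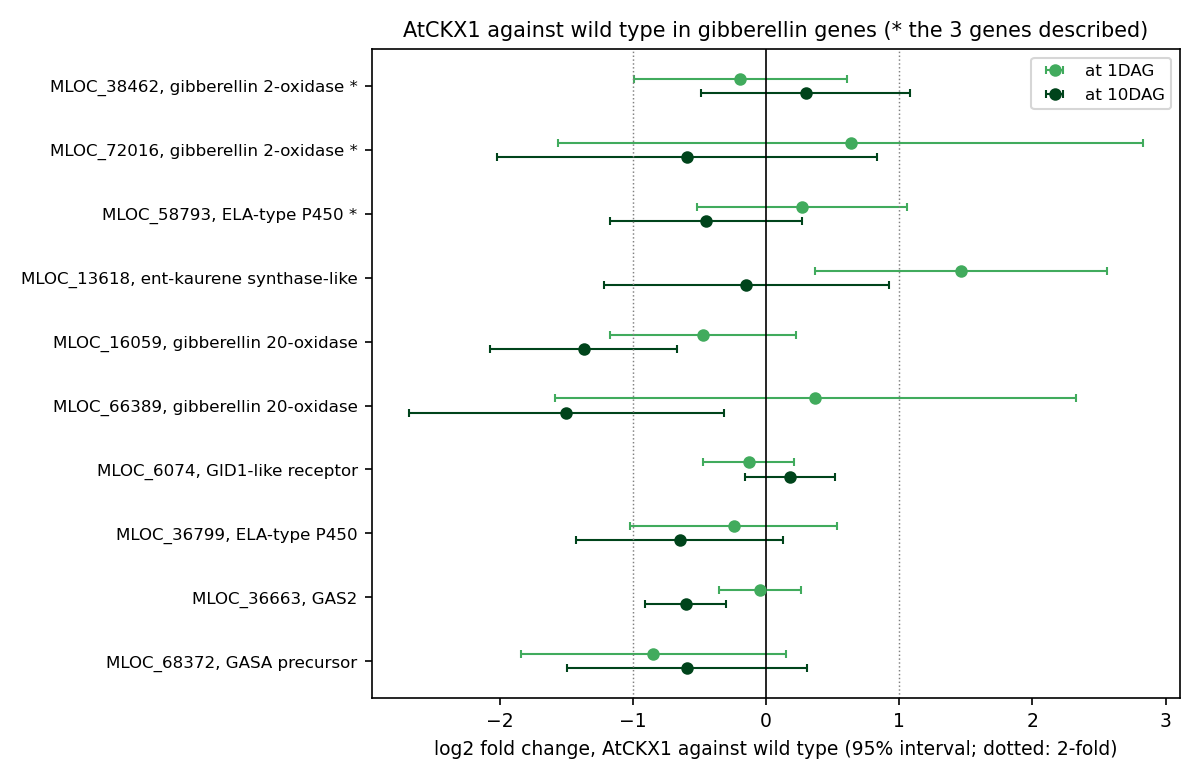
Log2 fold change of AtCKX1 against WT (horizontal axis) at 1DAG and at 10DAG for the same 10 gibberellin genes, with bars of an approximate 95% interval worked out from edgeR's test. The intervals of MLOC_38462, MLOC_72016 and MLOC_58793 hold 0 at both ages, and those of MLOC_16059, MLOC_66389 and MLOC_36663 lie below 0 at 10DAG without an adjusted p under 0.05.

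The profiles of the 3 genes over the 12 libraries were set beside each other as a description. Pearson's r of log2 CPM was 0.931 between MLOC_38462 and MLOC_58793, 0.902 between MLOC_72016 and MLOC_58793 and 0.852 between MLOC_38462 and MLOC_72016. The points share the 2 ages, which separate for each gene. Within the 6 libraries of 10DAG the values were 0.129, -0.093 and -0.615, in the same order of pairs. Within the 6 libraries of 1DAG they were 0.561, 0.759 and 0.627.

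Among 1337 tested genes with a function in the sources used, nearly all from the study's list of genes higher at 10DAG, the 3 with the highest r were sought for each gene. MLOC_38462 was closest to MLOC_10811, a calcium-dependent protein kinase (r = 0.990 over 12 libraries, 0.898 within 1DAG and 0.949 within 10DAG). Deviations from the group means also ran together in this pair, with r = 0.965. MLOC_10811 measured 19.1, 24.8 and 33.6 CPM in WT 1DAG and 50.9, 58.6 and 76.0 CPM in WT 10DAG, and 29.6, 26.4 and 28.6 CPM in AtCKX1 1DAG and 71.1, 56.7 and 68.9 CPM in AtCKX1 10DAG. Both genes thus had their lowest AtCKX1 10DAG value in replicate 2 and their highest WT values of each age in replicate 3. The next nearest were MLOC_12498, a nitrilase (0.983), and MLOC_14668, of unknown function (0.977).

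MLOC_72016 was nearest to MLOC_60848, a homeobox-leucine zipper protein (r = 0.956), to MLOC_58997, a secretory carrier membrane protein (0.950), and to MLOC_76450, a zinc-finger transcription factor annotated as Ramosa1, which in maize controls branching of the inflorescence (0.945). Within 10DAG the r of these 3 with MLOC_72016 was 0.634, 0.238 and -0.037. Within 1DAG, where MLOC_72016 had 0 to 5 reads per library, it was 0.822, 0.953 and 0.962. For MLOC_58793 the nearest were MLOC_26558, annotated as a xylanase inhibitor (0.980), MLOC_7399, a cyclic nucleotide-gated channel (0.979), and MLOC_51699, an amino acid permease (0.979). Their r was 0.727, 0.961 and 0.249 within 1DAG and 0.682, 0.476 and 0.978 within 10DAG. The values over 12 libraries thus include the split between the ages. An r of at least 0.9 was reached by 9.09% of the other 20211 genes tested for MLOC_38462, 2.16% for MLOC_72016 and 8.87% for MLOC_58793. Likeness over the 12 libraries was thus shared with many genes.

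**Figure D4:**
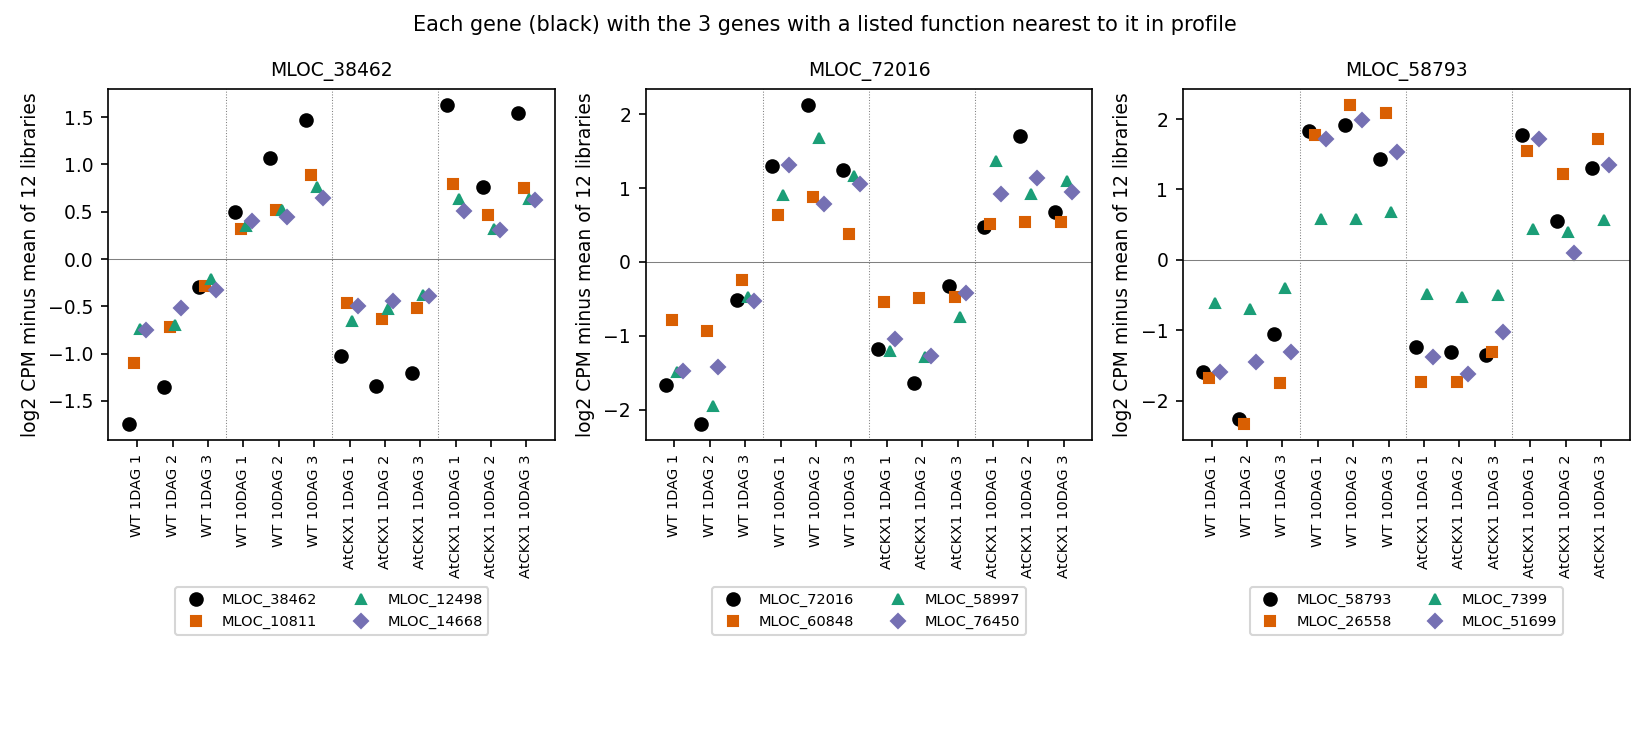
Log2 CPM in each of the 12 libraries minus the gene's mean over them (vertical axis) for each of the 3 genes (black circles) and the 3 genes with a listed function nearest to it by Pearson's r. Points above 0 are the 10DAG libraries and points below 0 the 1DAG libraries for every gene drawn, and MLOC_38462 and MLOC_10811 (r = 0.990) keep the same order within WT 1DAG and WT 10DAG.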

How the data were processed

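Sequence reads of 12 stem base libraries were trimmed, aligned with TopHat to the barley cv. Morex genome (IBSC_v1) and counted per gene with HTSeq 0.6.0 by the authors, who deposited raw read counts with no normalization. Rows without a gene were left out (22.1% to 24.4% of reads had no feature and 7.02% to 10.3% were not unique). The MLOC identifiers matched 0 entries of the reference gene table at hand, so no positions or sequences are given. Gene functions were taken from the entries used here of the study's list of genes higher at 10DAG and from its gene list, 1348 genes in all.

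Tests were run on the counts with edgeR 4.0.16 under R 4.3.3 (filterByExpr, TMM, robust quasi-likelihood test, Benjamini-Hochberg adjustment over all genes tested). WT ages were compared in the 6 WT libraries. The other comparisons used 1 fit of all 12 libraries with 4 group means, because 3 libraries estimate the spread poorly. A prior count of 2 was used on the log scale. Standard errors are approximate. The fits were tested on simulated data. The genes named are the 3 genes, the 7 other gibberellin genes and, for each of the 3, the 3 genes with the highest r, plus the transgene and marker genes. Genes and lists were chosen with earlier results of these data known. The study's methods name the WT replicates as biologically independent. For the AtCKX1 libraries no source used here says so, and p-values then measure only the spread between these samples. No 2 of the 66 library pairs held identical counts. Samples were not paired by replicate number. Alternatives were DESeq2 1.42.0, other scalings and filters, glmTreat, non-robust dispersion, a replicate block, other sets of libraries, and each library left out in turn.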

Additional observations from a re-analysis of the deposited data

How the results depend on the processing

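Few reads limited MLOC_72016, with 5 and 8 summed over the WT and AtCKX1 libraries of 1DAG, and MLOC_66389, with 3 and 4. Against a 2-fold change (glmTreat) the AtCKX1 age effect of MLOC_72016, 2.61, was no longer called (edgeR adjusted p = 0.101), and 3 of the 7 further gibberellin genes were called. A minimum of 10 counts in every library left no value for MLOC_72016 or MLOC_66389. DESeq2 called 1 of the 7 between the genotypes at 1DAG and 1 at 10DAG, where edgeR called 0. The cause of these differences between tools was not tested. Shares of all genes called were worked out only for the main edgeR fits, so counts under the alternatives are a description. Without replicate 1 of WT 1DAG and replicate 2 of WT 10DAG together, the WT age effect of MLOC_72016 was 3.16.

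With each library left out in turn, log2 fold changes of MLOC_38462, MLOC_72016 and MLOC_58793 ranged as follows. They were 1.76 to 2.63, 3.33 to 5.47 and 3.13 to 3.73 for the WT ages (the highest of the first and of the second without replicate 3 of WT 1DAG), and 2.37 to 2.75, 2.02 to 3.43 and 2.29 to 2.88 for the AtCKX1 ages. Between the genotypes they were -0.48 to 0.35, -0.19 to 2.24 and 0.01 to 0.62 at 1DAG, and 0.08 to 0.55, -1.15 to -0.22 and -0.78 to -0.19 at 10DAG. The differences of the age effects ranged from -0.054 (without replicate 3 of WT 1DAG) to 0.78, from -2.83 to -0.41 and from -1.07 to -0.45. Of the 7 further genes, 4 to 7 were called for the WT ages, 3 to 4 for the AtCKX1 ages and 0 to 1 between the genotypes at 10DAG.

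Same-numbered libraries did not regularly deviate together (r over 0.1 in 2 of 18 pairs, range -0.339 to 0.363). No source used here says how replicates were numbered, and these correlations cannot show whether same-numbered libraries shared a round of growth or preparation. With the replicate number as a block the AtCKX1 age effects were 2.52, 2.60 and 2.58 (edgeR adjusted p = 0.000248, 0.0269 and 0.000331), with no change of call. By Spearman's rho 1, 1 and 0 of the 3 nearest genes of MLOC_38462, MLOC_72016 and MLOC_58793 were kept, and by r without replicate 1 of WT 1DAG and replicate 2 of WT 10DAG also 1, 1 and 0.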
